A study of Homo sapiens with 28 samples.

Results

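The data are the places on chromatin where the repressor REST was found in GP5d cells, with and without a small interfering RNA (siRNA) against RAD21. They comprise every row of the REST peak lists of the control siRNA and the siRAD21 group, 4069 and 4360 peaks, together 8429 of the 393268 peaks in the 22 lists of the series. The lists come from chromatin immunoprecipitation and sequencing (ChIP-seq), in which an antibody recovers cross-linked chromatin and sequenced fragments (tags) that pile up mark a peak. Counted as places on the genome, both lists together covered 5532 distinct regions.

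GP5d is an established human colon adenocarcinoma line. Cells received 50 nM of either a control siRNA without a target or an siRNA against RAD21 (siRAD21), and were harvested after 72 h. The other lists used are those of 10 further ChIP targets in the same cells, each under both siRNAs: RAD21 and SMC3, subunits of the cohesin ring, its loader NIPBL, the loop anchor CTCF, the histone mark H3K4me1, and the factors HNF4A, JUND, KLF5, MYC and RFX2. Each target had 1 library for each siRNA, so no difference between the siRNAs has a replicate check and libraries were not tested against each other. Intervals are at 95% and cover counting error only. All cells were of 1 line, and these data hold no measure of RAD21 RNA or protein level. What they hold on cohesin is the RAD21 and SMC3 peaks under both siRNAs, given below. A separate siRNA tag of the siRAD21 REST library names RAD37, against its title and description.

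REST is a zinc finger protein that binds a long DNA element near neuronal genes and recruits corepressors, which keep those genes silent outside the nervous system. Its sites range from strong, isolated elements to weak ones in open chromatin, where many factors are found. Cohesin forms loops that are anchored mainly at CTCF sites and can bring distant elements together. The comparison asks where REST was found before and after siRNA against a cohesin subunit.

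The siRAD21 REST library was shallower. It held 4203643 tags after repeated positions were removed, against 6787207 in the control, a ratio of 0.619. Before that step the numbers were 6636264 and 8035455, a ratio of 0.826, because 37% and 16% of the tags were repeats. The immunoglobulin G (IgG) library that served as background held 4101535 tags under siRAD21 and 8916252 under control siRNA, a ratio of 0.460. The fragment length modelled by the peak caller was 281 and 345 bp, and the fewest tags in any REST peak were 8 and 11. What depth and background contributed to the differences given here cannot be told apart from the siRNA.

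Strong REST sites were found under both siRNAs, and most sites found under 1 siRNA were weak. Of the 4069 control peaks, 2810 were kept, that is overlapped by a siRAD21 REST peak by at least 1 bp, and 1259 were lost. Seen from the other list, 2852 of the 4360 siRAD21 peaks lay on a control peak and 1508 were new. The share kept was 69.1% (95% interval 67.6 to 70.5), where all 11 targets together had 49.4%. The share of siRAD21 peaks found in the control list was 65.4% (64.0 to 66.8), where all 11 targets together had 73.1%. REST thus lay above the pooled series by the first share and below it by the second. By target, the second share was 82.3% for H3K4me1, 86.3% for RAD21, 87.1% for CTCF and 88.3% for SMC3. The remaining targets lay below REST, from 13.3% for JUND to 54.9% for MYC. By the first share, only H3K4me1 lay above REST, with 74.3%. The series includes the cohesin subunits themselves, with 46.6% of control RAD21 and 28.4% of control SMC3 peaks kept. REST and JUND had more peaks under siRAD21 than under control siRNA, and the other 9 targets had fewer.

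The overlap itself was rarely marginal. Of the kept control peaks, 13 shared under 100 bp with their partner, and 17 shared under 250 bp. Just outside the rule, 83 lost peaks (6.59%) had a siRAD21 REST peak within 1000 bp, and 48 new peaks (3.18%) had a control peak that near. Lost peaks lay at a median of 248 kb from the nearest kept REST summit, and new peaks at a median of 287 kb. Kept peaks formed 2645 1-to-1 pairs, 81 control peaks were overlapped by more than 1 siRAD21 peak, and 45 siRAD21 peaks overlapped more than 1 control peak.

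The share found in the other list rose with the score of a peak, which is −10 × log10 of the p-value that the authors' peak caller gave. Of the control peaks with a score from 50 to 60, 18.2% were kept, and from 80 to 100 it was 35.2%. From 150 to 200 it was 77.0% (70.8 to 82.5), and from 400 to 1000 it was 98.8% (97.4 to 99.6). All 1244 control peaks with a score of 1000 and above were kept, an interval of 99.7% to 100%. In the siRAD21 list the share rose earlier, with 58.7% from 80 to 100 and 88.9% from 150 to 200. It ended slightly lower, at 97.2% from 400 to 1000 and 99.4% of 958 peaks from 1000 upwards. The plot of shares by score shows both curves.

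**Figure D1:**
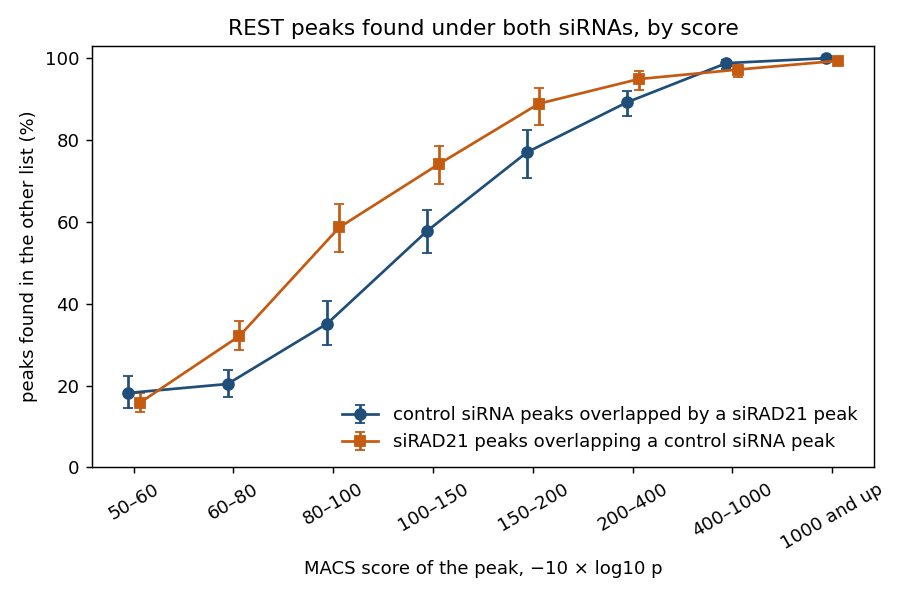
Share of REST peaks found in the other list (y axis, %) by the MACS score of the peak (x axis, −10 × log10 p, 8 classes), for 4069 control peaks (circles) and 4360 siRAD21 peaks (squares), with 95% Clopper-Pearson intervals. Both curves start below 20% and pass 97% from a score of 400.

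Tags per peak gave the same order. Of the control peaks with 11 to 15 tags, 11.6% were kept, with 31 to 50 tags it was 82.7%, and with 201 or more tags all 803 were kept. In the siRAD21 list, 13.6% of the peaks with 8 to 10 tags lay on a control peak, and all 449 with 201 or more tags did. Width followed as well. Control peaks of 800 to 1000 bp were kept at 17.1% and those of 2000 to 3000 bp at 96.5%.

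Lost and new peaks were thus small. The median lost peak had 15 tags over 1121 bp and a score of 70.1, against 91 tags over 2139.5 bp and a score of 762 for the median kept control peak. The median new peak had 10 tags over 832 bp and a score of 59.7, against 57 tags over 1662.5 bp and a score of 443 for the median siRAD21 peak that lay on a control peak. Fold enrichment over background had medians of 28.3 for kept and 6.96 for lost control peaks, and of 45.1 for matched and 13.1 for new siRAD21 peaks. At the depth ratio of 0.619, the median lost peak would hold 9.29 tags in the siRAD21 library. Scaled in this way, 385 lost peaks (30.6%) and 37 kept ones (1.32%) fell under the 8 tags of the smallest siRAD21 peak. The reverse count says nothing about new peaks. Even the smallest siRAD21 peak, scaled upwards, lies above the 11 tags of the smallest control peak.

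The strong exceptions were more often new than lost. Lost peaks with a score of 400 and above numbered 6, all below 1000, whereas 21 new peaks passed 400 and 6 of these passed 1000. The false discovery rate (FDR) of each list rests on its own IgG library. Its highest value was 100% in the control list and 19.1% in the siRAD21 list. An FDR under 5% was reached by 2171 of all 4069 control peaks and 3128 of all 4360 siRAD21 peaks. Among these were 52 lost peaks (4.13% of the lost) and 495 new peaks (32.8% of the new). With such unlike scales, that gap cannot be read as a difference in strength.

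The 5 kept peaks with the highest scores were isolated REST sites, with no other target found at any of them. Coordinates are hg18, and no gene annotation of that build was used here. The first, on chromosome 5 from 155566893 to 155569916, held 35.8 RPM (tags in the peak per 1000000 tags of its library after repeats were removed) under control siRNA and 27.6 under siRAD21. On chromosome 22 from 19692548 to 19695373 the values were 43.5 and 40.2, with summits 3 bp apart. The pair on chromosome 1, from 241075644 to 241078764 and from 112207762 to 112210209, held 36.1 and 33.4 under control siRNA and 33.5 and 21.2 under siRAD21. On chromosome 19 from 41145201 to 41147331 the values were 32.7 and 38.1, with summits 1 bp apart. Of the 5, 4 were lower and 1 was higher under siRAD21. From 3100 up to its highest value of 3233.06 the score no longer orders peaks by strength. In this range lay 562 control peaks (13.8%) and 202 siRAD21 peaks. A control peak on chromosome 20 with 895 tags had a score of 3100. The 5 named here held 222 to 295 control tags, under the median of 379.5 for the 562. They are thus the highest by score and not the strongest by tags.

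The strongest lost peaks were likewise alone. They lay on chromosome 2 from 209808399 to 209810520 (89 tags, score 688), chromosome 4 from 12255631 to 12257669 (52 tags, 466), chromosome 7 from 51199722 to 51201802 (52 tags, 460), chromosome X from 42193494 to 42195459 (47 tags, 450.5) and chromosome 17 from 36215336 to 36216788 (41 tags, 429). None had a siRAD21 REST peak within 1000 bp or a peak of another target under either siRNA.

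The strongest new peaks were larger than these, and 4 of the 5 lay with another target under siRAD21. The peak on chromosome 1 from 6226204 to 6230009 held 164 tags, a score of 1486, and CTCF, H3K4me1, RAD21 and SMC3 were found there under both siRNAs. The peak on chromosome 8 from 41871089 to 41873270 (137 tags, 1411) was alone. On chromosome 20 from 61754384 to 61756097 (112 tags, 1242) KLF5 was found under both siRNAs and H3K4me1 under siRAD21. On chromosome 19 from 54314353 to 54316547 (113 tags, 1139) H3K4me1 was found under siRAD21 only, and on chromosome 9 from 78710472 to 78712187 (128 tags, 1114) under both siRNAs.

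Where REST was kept, the ratio of tags between the libraries was alike at most pairs. The median log2 ratio of RPM, siRAD21 over control, was 0.01 over 2810 pairs (interval of the median −0.01 to 0.02), with quartiles of −0.24 and 0.30. Tags within 1.5-fold of each other were found at 77.8% of the pairs. The value depends on the scaling, since scaling before removal of repeats gave a median of −0.41 and scaling after that removal, per bp of peak width, gave 0.42. Only unequal change between pairs can therefore be read from these libraries, not the overall level.

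Relative to the bulk, more kept pairs stood high than low under siRAD21. More than 2-fold higher were 187 pairs (6.65%), where the pairs of all 11 targets had 6.29%, and more than 2-fold lower were 63 (2.24%), where all targets had 23.4%. The share of REST pairs over 2-fold lower was thus under that of the pooled series, while the share over 2-fold higher was near the pooled one. The series share lower includes the cohesin subunits, RAD21 with 52.6% and SMC3 with 79.5% of pairs. Their median log2 ratios of RPM were −1.03 and −1.40. Among the targets other than these and REST, the share lower ran from 4.53% for H3K4me1 to 58.5% for MYC. The share over 2-fold higher was 12.2% for H3K4me1, which has the most pairs in the pool, and 5.06% for CTCF. Each remaining target had at most the 2.95% of NIPBL, so by target REST lay under H3K4me1 and above all others. All these shares are scaled after removal of repeats. Scaled by tags before removal of repeats, the order for REST turned, with 107 REST pairs higher and 231 lower. Ratios over 2-fold higher were most frequent at weak control peaks. Among 5 classes of 562 pairs by control score, the weakest (score 50.1 to 162) had a median log2 ratio of 0.28 with 100 pairs over 2-fold higher, and the strongest (3100 and above) had −0.01 with 6 over 2-fold higher and 97.0% within 1.5-fold. A weak control peak is in the kept class only where it was called again, so the weakest class is selected towards high siRAD21 values.

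**Figure D2:**
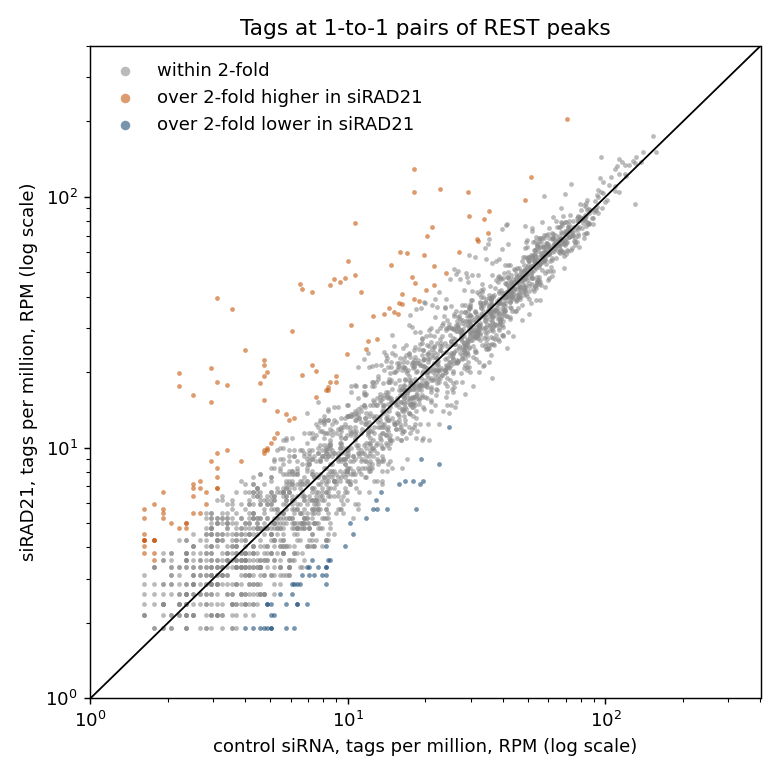
RPM in the control siRNA library (x axis) and the siRAD21 library (y axis), both on log scales, at 2645 1-to-1 pairs of REST peaks, each point 1 pair, with the line of equality. Most points follow the line, 130 pairs lie over 2-fold above it (orange) and 57 over 2-fold below it (blue).

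A small set of sites with many tags stood apart from the line, almost all on 1 side. This set was described after the plot of tags had been seen. It takes sites with at least 12 RPM in 1 library that had, in the other, either no REST peak within 1000 bp or over 4-fold lower RPM in a 1-to-1 pair. Under siRAD21, 51 of the 1540 peaks at or above 12 RPM met this, 23 of them without a control peak and 28 in pairs. Under control siRNA, of 1486 peaks at that level, 2 on chromosomes 1 to 22 and X did, on chromosome 2 from 209808399 to 209810520 (13.1 RPM) and on chromosome 20 from 29271471 to 29275624 (13.3). Scaled before removal of repeats the numbers were 12 pairs and 7 unmatched peaks under siRAD21, and 1 and 0 under control siRNA. No such count is given for the other targets, so how usual this is between single libraries is not known.

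These 51 gains lay on 22 chromosomes, with at most 7 on any 1 of them, and held 52 to 543 tags (median 90). Their median width of 1817 bp was below the 2234 bp of the other siRAD21 peaks at or above 12 RPM. The largest in tags lay on chromosome 7 from 100592998 to 100598476, with 129 RPM under siRAD21 and 18.1 under control siRNA. On chromosome 19, 2 sites had over 100 RPM under siRAD21: from 542029 to 544715 it was 107 against 22.8, and from 4122869 to 4125689 it was 104 against 18.0. On chromosome 12 from 3470502 to 3473500 the values were 78.5 and 10.6.

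The highest ratio among pairs with at least 50 tags in a library was on chromosome 22, where a control peak from 49051107 to 49052135 held 21 tags and its siRAD21 partner 166, a log2 ratio of 3.67. The next were on chromosome 14 from 35073858 to 35075085, with 24 and 150 tags (3.34), and chromosome 7 from 100091896 to 100092852, with 15 and 83 (3.16). The lowest ratios were smaller in size. They were −1.69 on chromosome 5 from 41552244 to 41555212 (125 and 24 tags), −1.53 on chromosome 16 from 12928385 to 12930244 (56 and 12) and −1.42 on chromosome 3 from 162030072 to 162032188 (56 and 13). Over the 1774 pairs with that many tags, 83 were over 2-fold higher and 28 over 2-fold lower under siRAD21. Pairs of the other targets with that many tags were not counted here.

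H3K4me1 peaks of the siRAD21 list were found at 27 of the 51 gains (52.9%, 38.5 to 67.1) and at 171 of the 1489 other siRAD21 peaks of that level (11.5%, 9.91 to 13.2). The control H3K4me1 list covered 13 of the 51 (25.5%) and 9.20% of the others. CTCF was found under siRAD21 at 13 of the 51 (25.5%, 14.3 to 39.6) and 8.66% of the others, and JUND at 8 (15.7%, 7.02 to 28.6) and 2.48%. RAD21 was found under siRAD21 at 6 of the 51 (11.8%) and 5.57% of the others, and under control siRNA at 2 (3.92%) and 9.67%. SMC3 was found under control siRNA at 3.92% of the gains and 12.3% of the others. In all, 21 of the 51 had no other target in any list. The gains were chosen by their tags and the other targets were not used in that choice, but the set was seen first, so these shares are a description. The antibody number that the labels list for H3K4me1 is known as one for histone H3 without regard to modification, so the identity of the mark is in doubt in each H3K4me1 value given here.

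Peak width and fold enrichment moved in opposite directions at kept sites. The siRAD21 peak was the narrower one at 86.5% of the pairs, with a median log2 ratio of width of −0.38 and quartiles of −0.63 and −0.16. The narrowing was seen in the strongest class too, with −0.43 and 93.4% of pairs narrower. It was not particular to REST. The median log2 ratio of width was also below 0 for every other target except H3K4me1 (0.06) and JUND (0.11), with −0.45 for RAD21 and −0.35 for CTCF. Fold enrichment was higher under siRAD21, with a median log2 ratio of 0.71 (0.67 to 0.75). NIPBL had 0.76, and the remaining targets ran from −1.01 for SMC3 to 0.25 for H3K4me1. Of the other targets with narrower peaks, CTCF, HNF4A, KLF5, NIPBL and SMC3 had a longer modelled fragment under siRAD21. MYC, RAD21 and RFX2 had a shorter one. For REST the modelled fragment length and the IgG depth were both lower under siRAD21, and their part in width and fold enrichment was not tested.

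Summits of kept pairs mostly lay close together, though the overlap that defines a pair limits how far apart they can be. The median distance between the control and the siRAD21 summit was 45 bp (42 to 49). For kept pairs of RAD21 it was 33 bp, of SMC3 46 and of CTCF 53, and the remaining targets had 60.5 (RFX2) to 185 bp (H3K4me1). The signed shift of REST had a median of 1 bp, so there was no common direction along the chromosome. REST summits lay within 50 bp at 53.1% of the pairs, within 100 bp at 74.4% and within 250 bp at 93.2%. Summits over 500 bp apart were found at 69 pairs (2.46%). Precision rose with strength, from a median of 101 bp in the weakest class of 562 pairs through 64.5, 50 and 27 bp to 23 bp in the strongest. Within 100 bp were 49.8% of the weakest class and 94.1% of the strongest. The 192 pairs over 250 bp apart had a median of 31 control tags, against 98.5 for the rest.

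**Figure D3:**
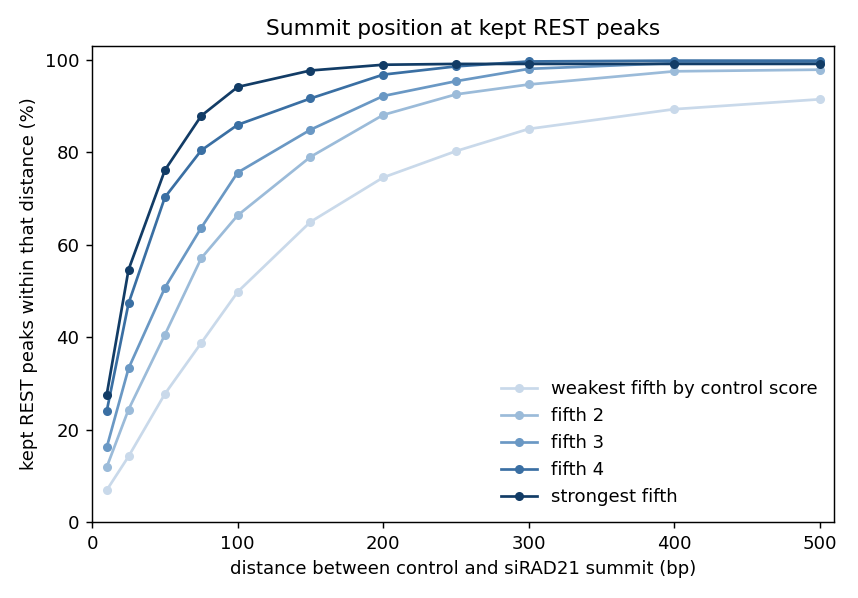
Share of kept REST peaks (y axis, %) whose control and siRAD21 summits lay within a given distance (x axis, bp), in 5 classes of 562 peaks by control score, from the weakest (lightest) to the strongest (darkest). At 100 bp the weakest class reached 49.8% and the strongest 94.1%.

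The longest shift among 1-to-1 pairs was within a cluster of tags rather than at a faint peak. On chromosome 20 from 42837713 to 42844539, a peak of 6827 bp with 895 control and 605 siRAD21 tags, the summits were 3170 bp apart, while the RPM values were alike at 132 and 144. The next were weak peaks, on chromosome 19 from 7478293 to 7479721 (26 and 37 tags, 2384 bp) and on chromosome 20 from 47535104 to 47536448 (22 and 13 tags, 1540 bp).

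Most REST sites in each class held no other target, and the share without one was lowest at new sites. In the control lists of the other 10 targets, no peak overlapped 74.9% of the kept control peaks, 69.3% of the lost ones and 57.2% of the new ones. In the siRAD21 lists the shares without another target were 77.8%, 76.0% and 52.5%. At least 4 other targets in the siRAD21 lists were found at 2.10% of kept, 1.91% of lost and 14.9% (13.2 to 16.8) of new REST peaks, and at least 6 at 0.285%, 0.0794% and 5.77%. New REST peaks were overlapped more often although they had the smallest median width of the 3 classes.

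Each of the 10 targets was found under siRAD21 more often at new REST peaks than at kept ones. H3K4me1 lay at 40.9% of new peaks (38.4 to 43.4), against 14.3% of kept and 16.9% of lost ones. JUND, of the AP-1 family, lay at 19.2% (17.2 to 21.2), against 3.10% and 2.46%. The siRAD21 JUND library held 2.02 times the control tags. An FDR under 5% was reached by 718 of 12319 siRAD21 and 0 of 4678 control JUND peaks. CTCF lay at 17.1%, RAD21 at 13.0%, MYC at 11.8%, NIPBL at 11.5%, HNF4A, a nuclear receptor of intestinal epithelium, at 9.28%, SMC3 at 8.49%, KLF5, a factor of the intestinal crypt, at 3.38%, and RFX2, a ciliary gene activator, at 0.663% of new peaks. At kept peaks the same targets lay at 8.54%, 5.20%, 1.96%, 2.03%, 2.10%, 2.95%, 0.498% and 0.214%.

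**Figure D4:**
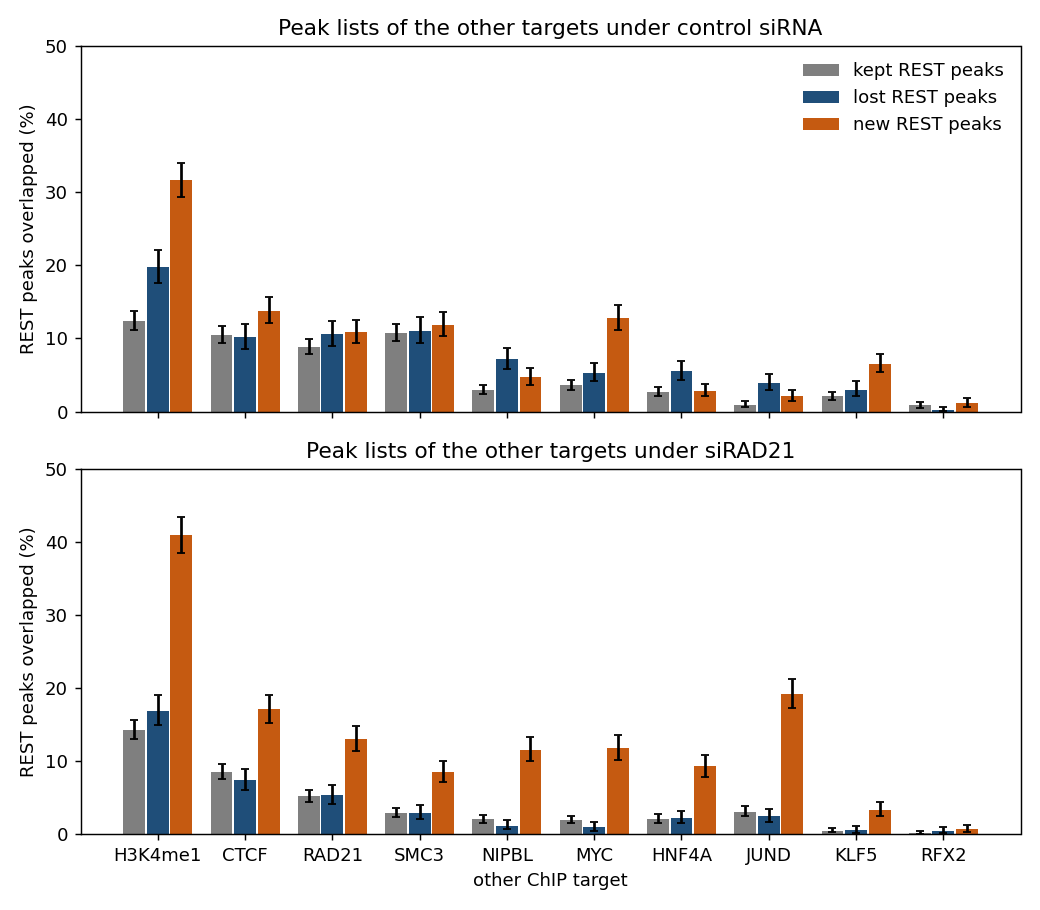
Share of kept (grey, 2810 control peaks), lost (blue, 1259) and new (orange, 1508) REST peaks overlapped by at least 1 bp by a peak of each other target (x axis), with 95% Clopper-Pearson intervals, in the control lists (upper panel) and the siRAD21 lists (lower panel). In the lower panel new peaks have the highest share for each target, 40.9% for H3K4me1 and 19.2% for JUND.

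Since new peaks are weak, they were set against kept siRAD21 peaks of like score, in 5 strata of the siRAD21 list. The difference, new minus kept, was 29.7 percentage points for H3K4me1 (25.8 to 33.5), 19.2 for JUND (16.4 to 22.0), 12.4 for CTCF (9.41 to 15.3), 12.2 for MYC (9.78 to 14.6), 11.9 for NIPBL (9.46 to 14.3) and 10.8 for RAD21 (8.20 to 13.4). It was 9.05 for HNF4A, 7.61 for SMC3, 3.82 for KLF5 and 0.758 for RFX2 (0.157 to 1.36). The interval lay above 0 for 10 of 10 targets. In the weakest stratum (score 50.0 to 59.4) H3K4me1 lay at 33.4% of 734 new and 18.1% of 138 kept peaks, and in the middle one (87.8 to 264) at 51.1% of 182 new and 13.9% of 690 kept peaks. By summits within 250 bp in place of overlap the difference was 7.92 for H3K4me1 and 9.01 for JUND. By that rule siRAD21 H3K4me1 lay at 10.1% of new and 2.56% of kept siRAD21 REST peaks. The rule asks for the summit of the H3K4me1 region, and a broad region can cover a REST summit with its own summit elsewhere.

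The siRAD21 lists of REST and of the targets other than CTCF and RFX2 were called against the same rabbit IgG library, so they share its background, and the part of this in the shares was not tested. In the control lists, new REST peaks also had the higher share at like score for H3K4me1 (19.0 percentage points, 15.2 to 22.8), MYC (11.9, 9.32 to 14.5), KLF5 (7.02, 4.99 to 9.04), CTCF (6.61, 3.67 to 9.56), SMC3 (5.51, 2.71 to 8.32) and RAD21 (4.88, 2.32 to 7.44). The intervals for NIPBL (1.63, −0.26 to 3.51), JUND (1.08, −0.05 to 2.22), RFX2 (0.47, −0.31 to 1.26) and HNF4A (−0.50, −1.97 to 0.97) held 0. By summits within 250 bp, 3 of the 10 control-list intervals lay above 0, those of H3K4me1 (2.44, 0.46 to 4.43), MYC (4.42, 2.77 to 6.06) and KLF5 (2.31, 1.18 to 3.44). CTCF (0.14, −1.62 to 1.91), SMC3 (0.70, −1.13 to 2.52) and RAD21 (0.60, −1.11 to 2.31) then held 0. Under control siRNA, where no REST peak was called at them, H3K4me1 lay at 31.6% of the new sites, against 12.4% of the kept ones.

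For some targets the peaks at new REST sites were themselves new more often than over the target's whole list, and for others they were not. Of the 289 new REST peaks with a siRAD21 JUND peak, 92.7% (89.1 to 95.4) had a JUND peak not found in the control JUND list, where 86.7% of the whole siRAD21 JUND list was new. The siRAD21 JUND library was the deeper one, and the part of depth in these JUND shares was not tested. For HNF4A it was 82.1% of 140, against 47.3% of its list, for RAD21 41.3% of 196 (34.4 to 48.6) against 13.7%, for SMC3 31.3% of 128 against 11.7%, and for CTCF 30.6% of 258 (25.1 to 36.6) against 12.9%. At REST peaks found under both siRNAs the same shares were 89.4% for JUND, 53.7% for HNF4A, 20.7% for RAD21, 10.1% for SMC3 and 19.9% for CTCF. For NIPBL it was 74.7% of 174 against 66.3% of its list, and for H3K4me1 21.6% of 617 against 17.7%. At REST peaks found under both siRNAs it was 67.3% (53.3 to 79.3) for NIPBL and 20.8% (16.8 to 25.2) for H3K4me1. The share was below that of the list for KLF5 (43.1% of 51 against 54.9%), MYC (42.1% of 178 against 45.1%) and RFX2 (60% of 10 against 76.3%). For these, the share at REST peaks found under both siRNAs was 66.7% of 9, 62.7% of 59 and 71.4% of 7. Target peaks were not matched by strength in these shares.

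New sites also lay nearer to summits of H3K4me1, RAD21 and CTCF, the only targets measured in this way. REST peaks that overlap the target are included in these distances, and the classes were not matched by score. The median distance from a REST summit to the nearest siRAD21 H3K4me1 summit was 5.28 kb for new peaks, 19.6 kb for lost and 28.6 kb for kept ones. To the nearest control H3K4me1 summit it was 7.07, 17.0 and 25.7 kb. To the nearest control RAD21 summit the 3 classes were close together, at 17.7, 20.8 and 21.4 kb, and to the nearest control CTCF summit at 13.1, 18.5 and 17.8 kb. To the nearest siRAD21 RAD21 summit they were 26.5, 38.3 and 39.0 kb, and to the nearest siRAD21 CTCF summit 15.5, 25.5 and 24.4 kb.

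Losses showed less of a pattern. Without regard to strength, lost control peaks carried more H3K4me1 (19.8% against 12.4% of kept), NIPBL (7.15% against 2.99%), HNF4A (5.56% against 2.74%) and JUND (3.89% against 0.961%) in the control lists. At like score, the share kept was lower where JUND had been found than where it had not, by −12.5 percentage points (−17.6 to −7.31, 76 peaks), and where HNF4A had been found, by −6.65 (−12.1 to −1.24, 147 peaks). In the control lists of JUND and NIPBL, 0 of 4678 and 0 of 11694 peaks had an FDR under 5%. For NIPBL the difference was −4.34 (−8.76 to 0.08), for H3K4me1 −1.32 (−4.38 to 1.75), for SMC3 −2.18 (−5.09 to 0.72), and for CTCF 0.34 (−2.84 to 3.51). For RAD21 it was −3.63 (−6.80 to −0.46, 382 peaks), so that of the 10 targets JUND, HNF4A and RAD21 had intervals clear of 0. Among control peaks with an FDR under 5%, of which 52 were lost, the differences were in the other direction for JUND (1.34) and RAD21 (0.354), so both rest on peaks above that FDR. The HNF4A interval held 0 with strata of fold enrichment (−5.07, −11.5 to 1.36), by summits (−2.97, −12.0 to 6.04) and for those peaks (−5.69, −11.8 to 0.40), and the RAD21 interval held 0 with strata of fold enrichment (−3.33, −6.87 to 0.21) and by summits (−1.56, −5.96 to 2.84).

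Crowded REST sites were kept less often, and they were also weaker. Of the 191 control peaks with at least 4 other targets 55.5% (48.1 to 62.7) were kept, with a median score of 118, against 70.7% of the 2978 peaks without another target, with a median score of 267. At like score the difference of the crowded class from the others was −3.96 percentage points (−8.29 to 0.37). The most crowded peaks had 9 other targets each, all but RFX2. On chromosome 1 from 33458785 to 33461205 the peak was kept with 56 and 14 tags, a log2 ratio of −1.31, and H3K4me1, HNF4A, KLF5 and RAD21 were still found under siRAD21. On chromosome 22 from 35922518 to 35924371 (32 tags) and chromosome 19 from 48979700 to 48983206 (50 tags) REST was lost, while 6 and 4 other targets were found.

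At kept sites the median REST tag ratio was alike with and without cohesin. Its level depends on the scaling, as given above, and only differences between classes can be read. The median log2 ratio of tags was −0.01 (−0.05 to 0.03) at 249 kept peaks with control RAD21 and 0.01 at 2561 without. Where RAD21 itself was found again it was 0.03 (−0.05 to 0.14, 119 peaks), and where RAD21 was not found again −0.04 (−0.10 to 0.01, 130 peaks). For SMC3 the values were 0.07 (75 peaks) and 0.01 (228), and for CTCF 0.06 (189) and −0.05 (105). JUND sites had the lowest median, −0.23, over 27 peaks, with an interval of −0.51 to 0.07 that held 0. KLF5 sites had 0.14 (−0.03 to 0.33, 60 peaks).

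REST peaks were spread unevenly over the chromosomes, and kept shares less so. The control list was densest on chromosome 19, with 3.48 peaks per Mb, and chromosome 20, with 2.80, and sparsest on chromosome 13, with 0.692. The share kept ran from 60.8% (49.1 to 71.6) on chromosome 13 to 79.9% (73.6 to 85.3) on chromosome 16, with a median of 68.9% over 23 chromosomes. At like score, 2 of the 23 chromosomes had an interval clear of 0 against the rest, chromosome 16 with 5.56 percentage points (1.30 to 9.82) and chromosome 3 with 4.35 (0.16 to 8.55). New peaks outnumbered lost ones on 18 of the 23, as on chromosome 19 with 79 new and 53 lost. Chromosomes 3, 5, 13, 20 and 21 had more lost than new. Other sequences held 5 control and 8 siRAD21 peaks.

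**Figure D5:**
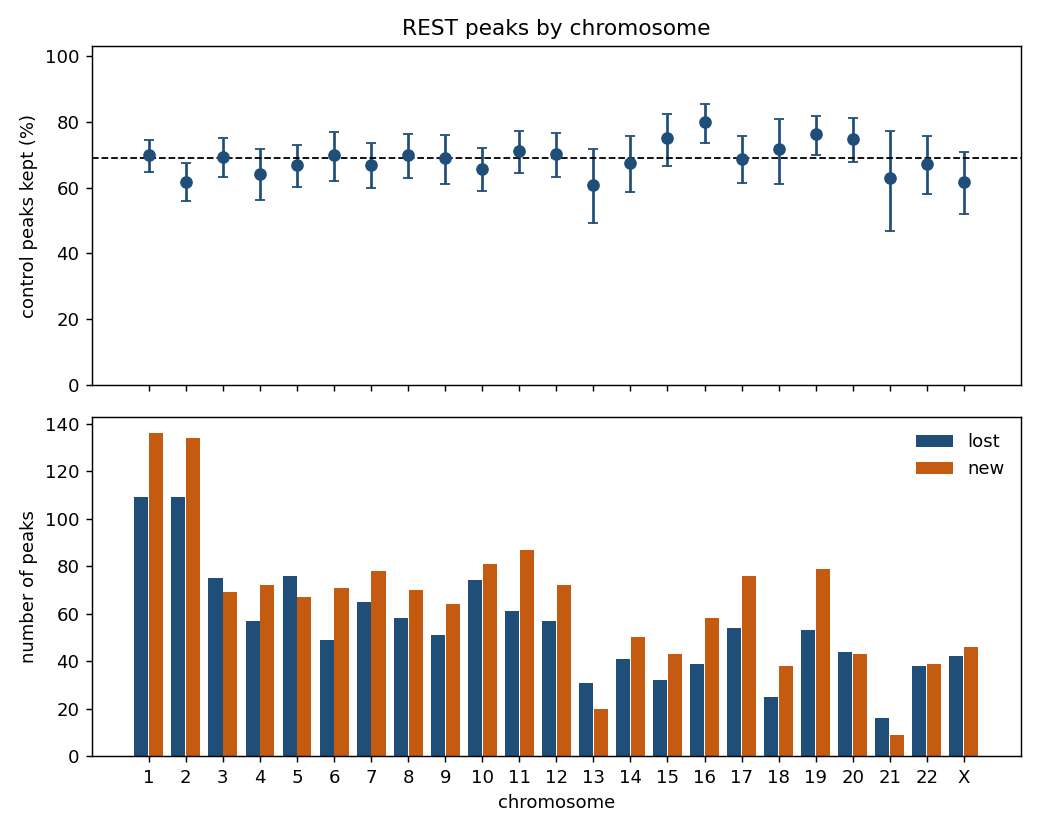
Share of control REST peaks kept on each chromosome (upper panel, %, with 95% Clopper-Pearson intervals and the share over all peaks, 69.1%, as a dashed line) and the number of lost (blue) and new (orange) peaks (lower panel). Most intervals hold the dashed line, and new peaks outnumber lost ones on 18 of 23 chromosomes.

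CTCF and H3K4me1 had the kept shares nearest to that of REST, 63.1% and 74.3%. At like score, over strata of the pooled control lists, the share of REST exceeded that of CTCF by 8.12 percentage points (7.07 to 9.17) and was lower than that of H3K4me1 by −6.22 (−7.26 to −5.18). By summits within 250 bp, REST lay above both, by 7.07 and 22.3. The siRAD21 library held 0.619 times the control tags for REST, 0.346 times for CTCF and 0.528 times for H3K4me1, and the part of depth in these differences was not tested.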

How the data were processed

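The samples were ChIP-seq libraries of 11 targets under control siRNA or siRAD21, 1 library each, grouped by title. The submitters' processing notes name CASAVA 1.4, BWA, MACS 1.4 and the hg18 build. The authors called peaks in each library against IgG libraries matched by siRNA and host, goat for CTCF and RFX2 and rabbit for the others. The header of the control REST list names MACS 1.4.0rc2 (p cutoff 1e-05, band width 300 bp). These settings were taken from that header only. Each deposited peak has a count of tags, a score of −10 × log10 p, a fold enrichment (a linear ratio) and a deposited FDR in percent. The FDR column has no name. It was identified by its values under 5, whose number matched the labels in all 22 lists. Depth was taken from the file headers.

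From these were computed overlaps by at least 1 bp, Clopper-Pearson intervals, RPM (tags per 1000000 tags after filtering), and Mantel-Haenszel differences over 5 strata of score with 95% intervals, using Python 3.11.15, numpy 2.4.6, pandas 2.3.3 and scipy 1.17.1. A kept control peak was paired with the siRAD21 peak that overlapped it most. The scripts were checked on simulated peaks with known answers. Intervals cover counting error only, and tags are not known to be independent molecules. The classes, regions and lists were chosen with earlier results of these data known. The regions named were the 5 strongest kept, lost and new peaks by score (lost and new ones with no REST peak of the other list within 1000 bp), the 3 pairs with the highest and the 3 with the lowest tag ratio, the 3 with the longest summit shift and the 3 control peaks with most other targets. The alternatives were other overlap rules, stricter peak selections, other scalings and other strata. The 6 IgG libraries were not analysed on their own here. No genome or annotation of hg18 was used, so no peak is assigned to a gene and no sequence is given.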

Additional observations from a re-analysis of the deposited data

How the results depend on the processing

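No paired analysis was possible because each target had 1 library for each siRNA. No library was left out, since each side had 1. Depth (0.619 of the control) and the IgG library (0.460) limit calls of weak peaks, and the cause of each change given here was not tested.

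The kept share of control REST peaks was 63.5% with reciprocal overlap of at least 50%, 51.4% by summits within 100 bp, 64.5% by summits within 250 bp and 71.1% by peaks within 1000 bp. It was 96.5% with an FDR under 5% in both lists, 90.8% for a score of at least 100 in the list counted, 80.2% for that score in both lists, and 89.2% for equal numbers (2171) of strongest peaks. In the same order, without the 1000 bp rule, the share of siRAD21 peaks found in the control was 59.2%, 48.0%, 60.2%, 68.2%, 93.6%, 89.5% and 89.5%.

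The median log2 tag ratio was −0.41 with tags before filtering, 0.42 per bp of width and −0.023 with an FDR under 5% in both lists, where the log2 ratio of fold enrichment was 0.59 and the median summit shift 34 bp. With control peaks at an FDR under 5%, chromosome 13 kept 97.2% and chromosome 16 kept 99.2%.

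The kept share with minus without another target, without strata, was −12.5 for H3K4me1, −17.3 for HNF4A, −34.2 for JUND, −9.32 for MYC, −21.7 for NIPBL and 19.96 for RFX2. With strata of fold enrichment it was 2.72 for H3K4me1 and 18.1 for RFX2, and by summits it was 5.00 for CTCF. For control peaks with an FDR under 5% it changed direction for JUND (1.34) and RAD21 (0.354), and was 2.66 for NIPBL and 1.11 for SMC3. REST minus H3K4me1 changed direction by summits (22.3), where REST minus CTCF was 7.07.

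The difference new minus kept in the siRAD21 lists, under alternatives added after the data had been seen, kept its direction for all 10 targets. With strata of tags it was 16.9 for CTCF, 40.1 for H3K4me1, 24.2 for JUND and 15.3 for MYC, and with an FDR under 5% it was 15.3, 36.9, 23.5 and 15.8. By summits of the other target it was 4.27, 7.92, 9.01 and 5.00, and also 5.86 for NIPBL, 5.12 for RAD21, 3.49 for HNF4A, 3.23 for SMC3 and 1.55 for KLF5. With strata of fold enrichment it was 25.3 for H3K4me1. Intervals above 0 numbered 9 or 10 of 10 under each. In the control lists they numbered 6 with 5 strata of score, 3 by summits and 9 with strata of tags. There HNF4A changed direction (1.70 with strata of tags, 0.394 with an FDR under 5%), as did RFX2 (−0.06 by summits, −0.09 with an FDR under 5%).

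By summits within 250 bp of a control peak, kept REST peaks had CTCF at 3.67%, H3K4me1 at 2.60%, HNF4A at 1.03%, JUND at 0.427%, KLF5 at 0.712%, MYC at 1.49%, NIPBL at 1.35%, RAD21 at 4.13%, RFX2 at 0.320% and SMC3 at 5.80%. In the same order lost peaks had 3.26%, 6.27%, 1.91%, 1.83%, 1.59%, 2.14%, 3.49%, 4.61%, 0% and 4.21%, and new peaks 3.78%, 6.03%, 0.531%, 0.597%, 1.92%, 5.11%, 1.79%, 3.65%, 0.265% and 3.71%. By overlap with the siRAD21 in place of the control lists, kept peaks had 8.54%, 14.3%, 2.10%, 3.10%, 0.498%, 1.96%, 2.03%, 5.20%, 0.214% and 2.95%. Lost peaks had 7.39% for CTCF, 16.9% for H3K4me1, 2.22% for HNF4A, 2.46% for JUND, 0.556% for KLF5, 0.953% for MYC, 1.19% for NIPBL, 5.32% for RAD21 and 2.94% for SMC3. New peaks had 17.1% for CTCF, 40.9% for H3K4me1, 9.28% for HNF4A, 19.2% for JUND, 3.38% for KLF5, 11.5% for NIPBL, 13.0% for RAD21 and 8.49% for SMC3.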
